A study of Mus musculus with 7 samples.

Results

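The genes described here encode the nuclear-encoded subunits of the 5 oxidative phosphorylation complexes and some of the factors that assemble them. They were taken by name, as the genes whose symbol starts with Nduf, Sdha, Sdhb, Sdhc, Sdhd, Uqcr, Cox4, Cox5, Cox6, Cox7, Cox8 or Atp5. For each gene the probe set that carries its symbol alone and has the highest mean over the 7 arrays was used, provided that this mean exceeded 85 units after undoing the log2, a cutoff taken from the methods. The rule found 93 genes, of which 87 passed the minimum, out of 10966 genes with a tested probe set. These were 34 subunits of complex I, 4 of complex II, 8 of complex III, 13 of complex IV and 17 of complex V, which makes 76 subunits, and 11 assembly factors. Livers were taken at intervals of 4 h between ZT02 and ZT26, and their RNA was read on 7 Affymetrix Mouse Gene 1.0 ST arrays. ZT0 is lights on, ZT12 is lights off and ZT26 is the clock hour of ZT02. Every array received 1 pool, to which each of 5 livers gave 500 ng of RNA, so that no time point had a replicate array. All mice were C57/BL6 males, 9 to 11 weeks old when housing began, with no transgene or drug given in the labels, and all had food in the dark phase alone for the 7 days before sampling. ZT14, ZT18 and ZT22 were therefore dark with food and the other 4 arrays light without food, and an effect of light cannot be told apart from one of food.

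Oxidative phosphorylation makes most of the ATP of a resting hepatocyte. Complexes I and II pass electrons from NADH and succinate to ubiquinone, complex III passes them on to cytochrome c and complex IV to oxygen, and complex V, the ATP synthase, uses the proton gradient that complexes I, III and IV build up. Most subunits are encoded in the nucleus and a few in mitochondrial DNA, and dedicated factors insert cofactors and join the modules without staying in the finished complex.

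The tissue label was checked against markers. The summed signal of 4 hepatocyte genes (Alb, Ttr, Apoa1 and Serpina1c) lay between 57454 and 60487 units, and all 4 exceeded 85 units. That of 5 Kupffer cell genes lay between 3056 units at ZT10 and 4800 units at ZT26, and its part in the values below was not tested. Of 4 skeletal muscle genes 2 exceeded 85 units on average, Ucp1, which defines brown fat, lay between 15.2 and 19.9 units, and of 3 erythroid genes the 1 with a probe set, Alas2, lay between 1306 and 1690 units. The median of the tested probe sets ranged from 8.31 in log2 at ZT02 to 8.40 at ZT26, and each array had a mean correlation with the others of 0.982 to 0.990. In bulk RNA, fewer cells of a type and less RNA per cell cannot be told apart.

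The signals of these genes varied little over the day. The ratio of the highest to the lowest array had a median of 1.12-fold over the 87 genes, against 1.24-fold over the 12076 probe sets tested. Among the 76 subunits the median was 1.11-fold, and 67 of them stayed under 1.2-fold. Only 16 of the 87 genes (18.4%) exceeded 1.2-fold, against 60.3% of all probe sets tested and 47.5% of the 2262 with a mean above 1000 units. A single gene, Ndufaf4, exceeded 1.5-fold, against 16.3% of all. The flattest was Ndufa9, an accessory subunit of complex I, with 1859, 1866, 1846, 1849, 1849, 1861 and 1849 units from ZT02 to ZT26, a 1.01-fold range. The 11 assembly factors spread more widely than the subunits, with a median of 1.22-fold. Genes for cytosolic ribosomal proteins, a set of 64, had a median of 1.11-fold, and the 76 genes for mitochondrial ribosomal proteins 1.19-fold. These are descriptions, and no difference between the sets was tested.

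**Figure D1:**
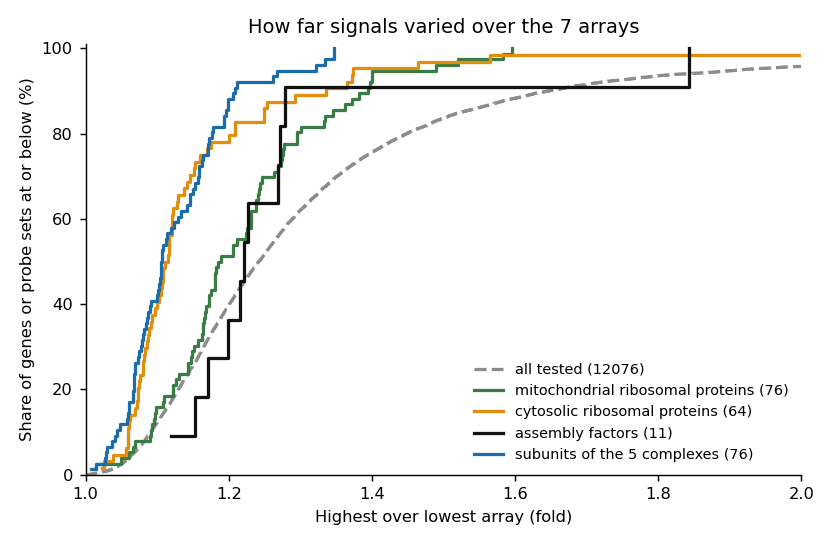
Cumulative share of genes or probe sets (%) against the ratio of the highest to the lowest of the 7 arrays (fold), with the number in each set in brackets and the axis ended at 2-fold. The curve of the 76 subunits lies to the left (median 1.11-fold), beside that of the cytosolic ribosomal protein genes (1.11-fold), and those of the 11 assembly factors (1.22-fold) and of all probe sets tested (1.24-fold) lie to the right.

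A cosine with a period of 24 h, fitted to the log2 values with limma and tested with its moderated F-test, gave a median amplitude of 0.04 in log2 for the members and 0.09 for all probe sets tested. Here an amplitude is how far the fitted curve rises above its mean. At a Benjamini-Hochberg adjusted p under 0.05, 1 of the 87 genes (1.15%) was called, beside 540 probe sets or 4.47% of all tested. At an unadjusted p under 0.05 there were 3 genes (3.45%), Ndufaf4, Sdhaf1 and Ndufa2, beside 25.7% of all. The share of called members was thus below the background at both levels. The median standard error of a member's amplitude was 0.03, nearly as large as the median amplitude itself, so that rhythms of the size seen in most subunits were not detectable with 7 arrays. Without any one of the 7 arrays no member was called, and between 13 (without ZT02) and 312 (without ZT22) probe sets were called in all.

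Most members lay slightly above their own mean in the first array of the dark phase. At ZT14, 58 of 87 genes exceeded their mean over the 7 arrays, with a median deviation of 0.02 in log2, 9 lay above it by more than 0.1 and none below it by more than 0.1. At ZT22, 55 genes lay above, and at ZT26 31 genes. At ZT02, the earliest array, 27 genes lay above their mean and 10 lay more than 0.1 below it. Over all probe sets tested the shares above the mean were 51.8% at ZT14, 53.4% at ZT22, 56.5% at ZT26 and 41.3% at ZT02. At ZT14 the share was 72.4% in mitochondrial and 68.8% in cytosolic ribosomal protein genes, beside 66.7% of the members. After the median of the tested probe sets was subtracted from each array, 61 members were above their mean at ZT14. The number was 54 at ZT22 and 12 at ZT26, and at ZT02 it turned to 56. Over all 12076 probe sets tested it was then 6407 at ZT14, 6412 at ZT22, 4370 at ZT26 and 7752 at ZT02. The median deviation of all probe sets tested at ZT02 turned likewise, from −0.01 to 0.03. The median deviation of the members changed sign with that subtraction at ZT02, ZT06, ZT10 and ZT18, and kept its sign at ZT14, ZT22 and ZT26. The low point of the members at ZT02 therefore depended on whether array medians were subtracted, and its cause was not tested.

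By complex, the median deviation at ZT14 was 0.02 in complex I (23 of 34 genes above their mean), 0.01 in complex II (2 of 4), 0.03 in complex III (6 of 8), 0.0009 in complex IV (7 of 13), 0.02 in complex V (13 of 17) and 0.03 in the assembly factors (7 of 11), positive with and without the subtraction. At ZT26, all 8 genes of complex III lay below their mean, as did 18 of 34 in complex I and 3 of 4 in complex II. In complexes IV and V it was 9 of 13 and 13 of 17. After the subtraction, no gene of complexes II, III and IV lay above its mean at ZT26. Complex IV showed the flattest median, between −0.01 and 0.002 on all arrays, though after the subtraction its ZT02 median rose to 0.05 and its ZT26 median fell to −0.05. In the assembly factors the median went from −0.07 at ZT02 to 0.04 at ZT18, and from −0.03 to 0.03 after the subtraction. The array at ZT26 repeats the clock hour of ZT02 with other mice. Between these 2 arrays the members differed by a median of 0.06 in log2 regardless of sign, and 23 of 87 by more than 0.1. Over all probe sets tested the median was 0.09, and 5580 of 12076 differed by more than 0.1. The median of the signed differences was 0.004 in the members and 0.04 in all probe sets tested.

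**Figure D2:**
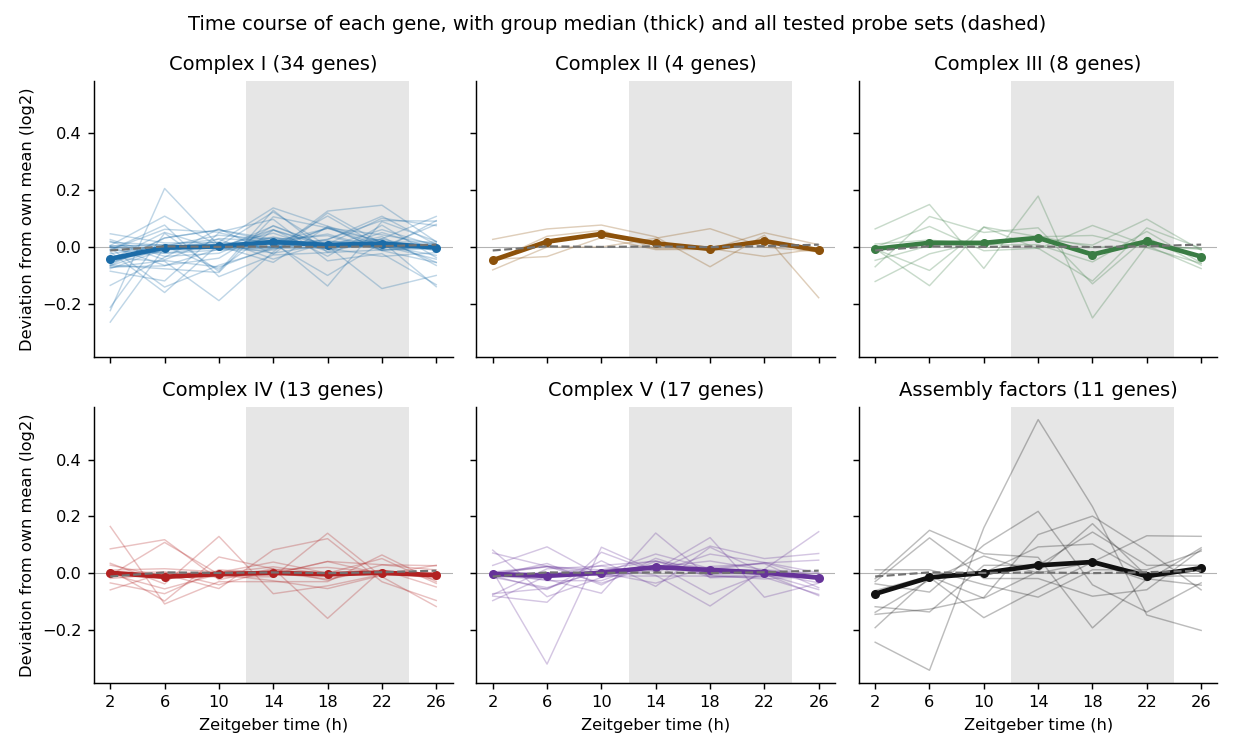
Deviation of each gene from its own mean over the 7 arrays (log2) against zeitgeber time (h), in 1 panel for each complex and 1 for the assembly factors. Thin lines are genes, the thick line with points is the group median, the dashed grey line is the median of all 12076 probe sets tested and the shaded band is the dark phase. Group medians stay within 0.08 of 0, while 1 assembly factor, Ndufaf4, reaches 0.54 at ZT14.

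In the dark with food, mean signals of these genes were slightly higher than in the light without food. The median difference of the 3 dark minus the 4 light arrays was 0.03 in log2 over the 87 genes and 0.003 over all probe sets tested. It was positive in 67 of 87 genes (77.0%), against 51.4% of all. In mitochondrial ribosomal protein genes 68.4% were positive (median 0.033), and in cytosolic ones 67.2% (median 0.023), so the tilt was not particular to these genes. The median was 0.04 in complex I (28 of 34 genes positive), 0.01 in complex II (3 of 4), 0.02 in complex III (5 of 8), 0.01 in complex IV (9 of 13), 0.03 in complex V (14 of 17) and 0.07 in the assembly factors (8 of 11). In 35 of the 87 genes the difference of the phases was larger than that between ZT26 and ZT02, as in 5477 of the 12076 probe sets tested, which is no smaller a share. With limma, no member passed an adjusted p under 0.05 and neither did any other probe set (0%). At an unadjusted p under 0.05 there were 2 members, Sdhaf1 and Ndufa8, beside 11.2% of all. All dark arrays exceeded all light arrays in 3 genes, Ndufa8, Atp5g1 and Sdhaf1 (3.45%), beside 4.23% of all. The count of positive genes fell to 55 when both ZT02 and ZT26 were left out, and the arrays of a phase are different hours rather than replicates.

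Ndufa8, an accessory subunit of complex I, had 1531, 1517, 1504, 1722, 1677, 1648 and 1612 units from ZT02 to ZT26. Its 3 dark values were the highest of its 7, and the phases differed by 0.13 ± 0.04 (SE) in log2 (limma, adjusted p = 0.403). Atp5g1, 1 of 3 genes for subunit c of the ATP synthase, showed the same order with a smaller step of 0.04 ± 0.04 (adjusted p = 0.668).

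**Figure D3:**
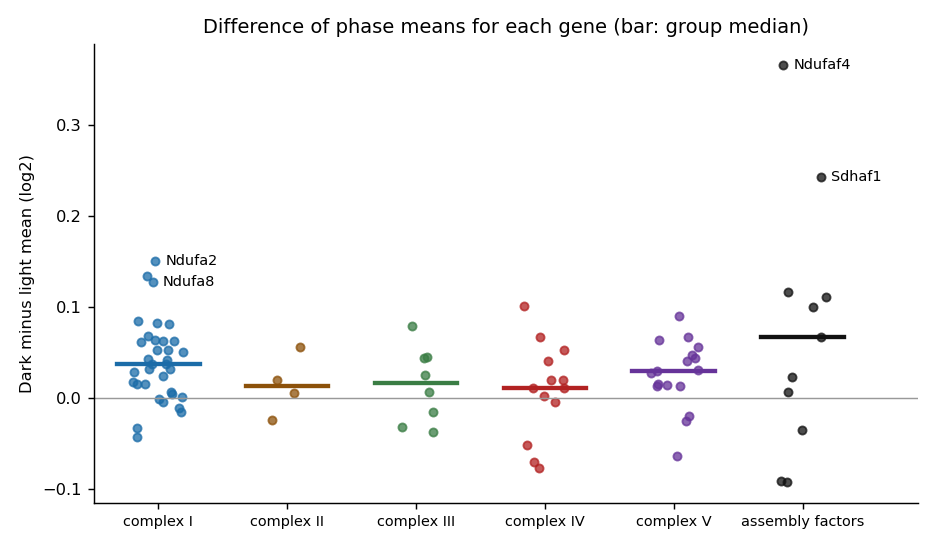
Mean of the 3 dark arrays minus mean of the 4 light arrays (log2) for each of the 87 genes, grouped by complex, with sideways scatter for legibility and bars at the group medians. Group medians lie between 0.01 and 0.07, above the 0 line, and the 2 highest points are the assembly factors Ndufaf4 (0.37) and Sdhaf1 (0.24).

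The clearest exception was Ndufaf4, an assembly factor of complex I. Its signal was 319, 297, 421, 548, 443, 340.4 and 328 units from ZT02 to ZT26. The value at ZT14 was 1.84 times that at ZT06, and the arrays at ZT10 and ZT18 on either side of it were the next highest. The amplitude was 0.38 ± 0.06 (SE) in log2 with a fitted peak at ZT14.8 (limma, adjusted p = 0.0381). ZT26 repeated ZT02 closely, with 328 against 319 units. The gene rose and fell across the change of phase, its ZT10 value exceeding that of ZT22, and the dark minus light difference of 0.37 ± 0.18 did not pass its test (limma, adjusted p = 0.491). Without any one array the adjusted p rose to between 0.0598 and 0.148 and the amplitude stayed between 0.31 and 0.42. It was 0.0902 when probe sets below 85 units entered the adjustment.

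Sdhaf1, a factor needed to place iron-sulphur clusters in the Sdhb subunit of complex II, had 277, 281, 289, 337, 353, 324 and 295 units. All 3 dark values exceeded all 4 light values. The amplitude was 0.18 ± 0.03 with a peak at ZT17.5, and just missed the threshold (limma, adjusted p = 0.0539). Sdhaf1 was called when the minimum was raised to 170 units or when array medians were subtracted. Without any one array it was not called (limma, adjusted p of 0.089 to 0.171). Nor was it called when probe sets below 85 units entered the adjustment (limma, adjusted p = 0.0961). The phases differed by 0.24 ± 0.05 in log2 (unadjusted p = 0.00114, adjusted p = 0.403, limma). Among subunits the largest amplitude was that of Ndufa2, an accessory subunit of complex I, with 907, 899, 817, 920.2, 1017, 1031 and 943 units. Its highest values were those of ZT18 and ZT22 and its lowest that of ZT10, with an amplitude of 0.15 ± 0.04 and an adjusted p of 0.104 (limma).

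**Figure D4:**
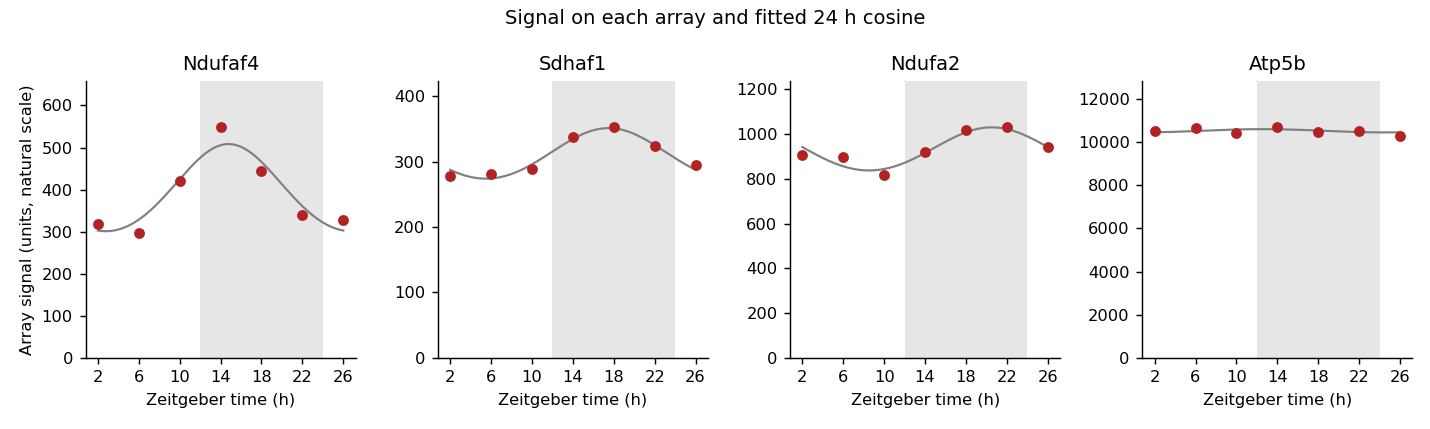
Signal on each array (units, natural scale, axes from 0) against zeitgeber time (h) for Ndufaf4, Sdhaf1, Ndufa2 and Atp5b, with points for arrays, a grey line for the fitted 24 h cosine and a shaded dark phase. Ndufaf4 goes from 297 units at ZT06 to 548 at ZT14, while Atp5b stays between 10279 and 10702 units.

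Promoter windows are shown for these 2 assembly factors, which had the largest amplitudes of all members, and for Atp5b, the catalytic beta subunit of the ATP synthase, as a gene with a flat signal (10533, 10686, 10441, 10702, 10494, 10533 and 10279 units). Each window runs from 250 bases before to 50 bases after the start of the gene, as given by RefSeq on GRCm38.p6, 5′ to 3′ on the gene's strand. Capitals mark the letters of a motif: the 10 letters searched as the site of NRF1 in Ndufaf4 (chr4:24897833-24898132, plus strand), CTTCCGG, the reverse complement of the ETS letters CCGGAAG to which GABPA binds, in Sdhaf1 (chr7:30322326-30322625, minus strand), and CGCCATGTT, the reverse complement of the YY1 letters AANATGGCG, in Atp5b (chr10:128083057-128083356, plus strand).
Ndufaf4: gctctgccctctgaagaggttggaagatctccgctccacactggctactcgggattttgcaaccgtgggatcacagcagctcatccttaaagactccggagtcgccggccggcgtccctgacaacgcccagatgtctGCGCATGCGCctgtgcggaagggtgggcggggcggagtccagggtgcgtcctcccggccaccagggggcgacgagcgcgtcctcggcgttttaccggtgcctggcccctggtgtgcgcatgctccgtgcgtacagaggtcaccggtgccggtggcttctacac
Sdhaf1: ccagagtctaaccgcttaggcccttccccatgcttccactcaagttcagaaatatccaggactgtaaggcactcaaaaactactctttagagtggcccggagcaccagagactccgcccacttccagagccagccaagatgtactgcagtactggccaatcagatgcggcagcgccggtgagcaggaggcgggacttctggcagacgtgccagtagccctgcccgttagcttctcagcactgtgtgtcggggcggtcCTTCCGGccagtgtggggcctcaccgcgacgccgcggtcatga
Atp5b: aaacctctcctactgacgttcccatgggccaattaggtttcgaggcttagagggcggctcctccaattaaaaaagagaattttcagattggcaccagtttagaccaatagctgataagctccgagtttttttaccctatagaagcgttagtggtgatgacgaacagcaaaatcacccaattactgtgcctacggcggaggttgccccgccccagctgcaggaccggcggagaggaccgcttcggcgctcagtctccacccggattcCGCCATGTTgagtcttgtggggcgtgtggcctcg

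RefSeq windows were at hand for 73 of the 87 genes, 78 windows in all, and were set beside 32851 windows of the same length over all genes, searched on both strands. The NRF1 letters were in 6 of the 78 windows (7.69%), against 0.971% of all windows, the ETS letters in 21 (26.9% against 8.86%) and the YY1 letters in 11 (14.1% against 2.38%). The letters TNAAGGTCA, bound by ERRA, were in 2 windows (2.56% against 1.28%). Of the motifs of the clock, the E-box CACGTG was in 7 windows (8.97% against 7.15%) and the D-box TTATGTAA in 1 (1.28% against 0.938%). No matches of these different motifs overlapped in the members' windows. The letters CCAAT, which were left out of that count, were in 32 (41.0% against 37.4%). The members' windows held a median of 20 CG steps, against 7 in all windows, so that they differ in base composition too. A match describes the letters and shows no binding.

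In complex I none of the 34 subunits was called, and the 3 widest ranges were those of Ndufs5, Ndufb3 and Ndufs4. Ndufb3, an accessory subunit, had 218, 262, 265, 288, 276, 265 and 265 units, low at ZT02 and highest at ZT14, with a 1.32-fold range (amplitude 0.11 ± 0.05, adjusted p = 0.354, limma). Ndufs4, an accessory subunit whose loss causes a Leigh-like disease, had 3385, 4056, 3694, 4289, 3869, 4001 and 4225 units. ZT02 was its lowest array and ZT26, the same clock hour, among its highest, a difference of 0.32 in log2. Ndufs5, another accessory subunit, had 322, 434, 377, 362, 396, 373 and 377 units, with its lowest value at ZT02 and its highest at ZT06, the neighbouring array. These 3 genes had the largest differences between ZT26 and ZT02 of all members.

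Ndufc1, an accessory subunit, had 1203, 1093, 1153, 1201, 1229, 1286 and 1284 units, lowest at ZT06 and highest at ZT22 and ZT26, with a fitted peak at ZT20.9 and an adjusted p of 0.275 (limma). Its other probe set (mean 927 units) followed another course, lowest at ZT02 and highest at ZT18. The 2 differed by up to 0.16 in log2, at ZT06, where the other lay 0.02 above its mean. The smallest amplitude belonged to Ndufb2 (0.003 ± 0.033), with 337, 335, 339.6, 324, 337, 339 and 321 units. Ndufc2, an accessory subunit of the membrane arm, had 6885, 7117, 7313, 7237, 7306, 7044 and 6841 units, a 1.07-fold range with its high values from ZT10 to ZT18. The core subunits that carry electrons were as flat or a little wider. Ndufv1, which binds NADH, had 2032, 2136, 2121, 2189, 1978, 2013 and 1866 units, and Ndufs1, an iron-sulphur subunit, had 921, 989, 919.6, 999, 919.6, 829 and 856 units. Both were highest at ZT14, and neither passed the test (adjusted p = 0.370 and 0.362, limma). Ndufv1 and Ndufs1 were chosen after their values were seen, as were Ndufs4, Ndufs5, Ndufa8 and Ndufa9 above.

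In complex II, none of the 4 subunits was called, and their ranges lay between 1.07-fold and 1.19-fold. Sdha, the flavoprotein that oxidises succinate, had 4415, 4691, 4759.9, 4553, 4553, 4467 and 4553 units, highest at ZT10. Sdhb, the iron-sulphur subunit, had 2796, 2868, 2895, 2814, 2615, 2825 and 2425 units, and its lowest value was that of ZT26, 0.21 in log2 below ZT02. The membrane anchors Sdhc and Sdhd had 3594, 3618, 3789.8, 3679.9, 3683, 3835 and 3725 units and 2496, 2639.6, 2639.6, 2697, 2760.3, 2639.6 and 2609 units. Sdhd was lowest at ZT02 and highest at ZT18, and Sdhc had the smallest amplitude of the complex (0.014 ± 0.031).

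In complex III the widest range was that of Uqcrb, a small subunit, with 4742, 5033, 4306, 5138, 3815, 4554 and 4304 units. It swung between neighbouring arrays, from 0.18 above its mean at ZT14 to 0.25 below it at ZT18 in log2, and the cosine did not pass the test (amplitude 0.093 ± 0.078, adjusted p = 0.698, limma). All 3 probe sets of the gene were high at ZT14 and low at ZT18, the other 2 differing from the one used here by at most 0.05 in log2, and whether they share probes was not tested. The other 7 subunits varied by at most 1.18-fold. Uqcrfs1, the Rieske iron-sulphur protein, had 419, 474, 456, 461, 402, 450.4 and 421 units, also lowest at ZT18. Uqcr10 had 763, 697, 804, 763, 808, 769 and 763 units, with only ZT06 apart from the others. Uqcrq, with the smallest amplitude of the complex, had 2709, 2735, 2704, 2704, 2593, 2793 and 2587 units, and Uqcrc2, a core protein, 5782, 5993, 5993, 6132, 5970.1, 5993 and 5939.9 units.

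Complex IV includes subunits with isoforms of different tissues, and the forms typical of heart and muscle were close to or below the minimum here. Cox6a1, the liver form, had 2129, 2177, 1974, 2028, 1797, 2022 and 1939.6 units, lowest at ZT18, whereas Cox6a2, the heart and muscle form, had 121, 99.8, 105, 105, 105, 112 and 105 units. Neither was called (adjusted p = 0.445 and 0.592, limma). Cox7a2, the liver form, lay between 1633 and 1762 units and Cox7a1, the muscle form, between 112 and 129 units. Cox8a lay between 3336 and 3609 units, Cox8b, the muscle form, had a mean of 45.3 units, and Cox8c one of 93.0 units. Cox4i1 lay between 1381 and 1538 units and Cox4i2 had a mean of 63.0 units. Cox6b1 lay between 3607 and 4038 units, with its highest value at ZT06, and Cox6b2, the testis form, had a mean of 63.3 units. Probe sets differ in how strongly they bind, so that these signals do not measure the ratio of 2 isoforms. The summed signal of the 4 skeletal muscle markers lay between 281 and 316 units.

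Among the other subunits of complex IV, Cox5a, a subunit on the matrix side, had 1359, 1373, 1326, 1457, 1498, 1348 and 1288 units. Its ZT14 and ZT18 values were the highest, with an amplitude of 0.077 ± 0.035 and an adjusted p of 0.354 (limma). Cox6c had 9769, 9802, 9725, 9702, 9560.0, 9775 and 9545 units, a 1.03-fold range. Ndufa4, first assigned to complex I and now counted in complex IV, lay between 2065 and 2155 units, and its paralogue Ndufa4l2 had a mean of 65.2 units.

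In complex V the catalytic core was flat. Atp5b and Atp5a1, the beta and alpha subunits, varied by 1.04-fold and 1.07-fold. The 3 genes Atp5g1, Atp5g2 and Atp5g3 encode the same mature subunit c, which forms the rotor ring. Atp5g1 had 6209.8, 6054, 6313, 6365, 6461, 6323 and 6188 units and Atp5g3 5467, 5467, 5464, 5729, 5529, 5455 and 5175 units. Atp5g2 had 3904, 3846, 4345, 4137, 4325, 4239 and 4133 units, with its 2 lowest values at ZT02 and ZT06. Their fitted peaks all fell in the dark phase, at ZT17.1, ZT16.6 and ZT14.4, though the largest amplitude was 0.062 ± 0.036 and none passed the test (adjusted p = 0.599, 0.506 and 0.592, limma).

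Atp5k, subunit e of the membrane sector, departed on 1 array. It had 389, 309.8, 412, 389, 413, 401 and 406 units, so that ZT06 stood 0.32 below its mean in log2 and the other arrays lay within 0.10 of it. With 1 probe set this could not be checked on a second. The amplitude was 0.12 ± 0.07 (adjusted p = 0.528, limma). Atp5l, subunit g, had 6 probe sets, which shared a high value at ZT18 of 0.13 to 0.19 above their means and low values at ZT06 and ZT22. Whether these 6 share probes was not tested. Atp5e, the epsilon subunit, had 435, 464, 467, 456, 424, 463 and 508 units, highest at ZT26. Atp5j2, subunit f, had the smallest amplitude (0.009 ± 0.032), with 3580.1, 3633, 3574, 3486, 3631, 3655 and 3447 units. Cox7a2l, counted here among the assembly factors, showed the largest disagreement between probe sets of a member, up to 0.17 in log2. Atp5l and Cox7a2l were picked after their values were seen.

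**Figure D5:**
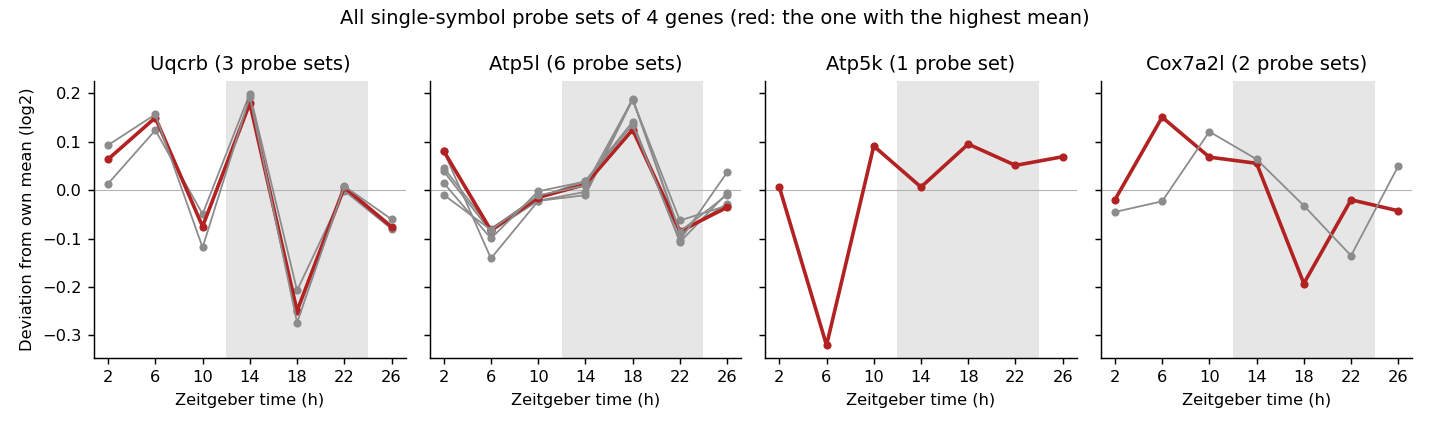
Deviation from own mean (log2) against zeitgeber time (h) for every probe set that carries only the symbol Uqcrb, Atp5l, Atp5k or Cox7a2l, with the probe set used here in red, others in grey and the dark phase shaded. The 3 Uqcrb and 6 Atp5l probe sets run together, whereas the 2 of Cox7a2l differ by up to 0.17.

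Of the 11 assembly factors, 7 (63.6%) exceeded 1.2-fold, against 9 of 76 subunits and 60.3% of all probe sets tested. Their median signal was 321 units, against 2029 units in the subunits and 331 units in all probe sets tested. At ZT02, 5 assembly factors lay more than 0.1 below their mean (2 after array medians were subtracted). So did 2699 of all 12076 probe sets tested (1712 after the subtraction). Ndufaf6 was highest at ZT14 (229 units against a mean of 197), Sdhaf2 and Sdhaf3, factors of complex II, were highest at ZT18, and Ndufaf1 at ZT06. These 4 were picked after their values were seen, and they did not share 1 peak time. The fitted peaks of 8 of them lay in the dark phase and those of 61 of all 87 genes, beside 6178 of the 12076 probe sets tested. Most of these fits did not pass the test, so that their peak times are poorly set.

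The minimum of 85 units left out 6 genes. The nearest below it were Ndufa4l2 (mean 65.2 units) and Cox6b2 (63.3 units), and the nearest above it Cox8c (93.0 units) and Cox6a2 (108 units). Cox7b2, Cox8b, Cox4i2 and the assembly factor Ndufaf5 were also below it. Cox7c and Ndufb4 were matched only by probe sets that carry a second symbol and were not used here. Many of these genes have processed pseudogenes. More than 1 probe set was listed for 18 members, and signal from gene copies was not separated here. In 46 of the 87 genes at least 2 arrays held exactly the same value, a property of the deposited values that 47.8% of all probe sets tested shared.

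Other genes of the pathway were taken from 5 lists. Of the 13 subunits encoded in mitochondrial DNA, 2 had a probe set with a single symbol, COX2 and ND3, and they varied by 1.07-fold and 1.09-fold, with neither called. Among 20 tested genes for electron carriers, ubiquinone synthesis and related proteins, 2 were called, beside 4.47% of all probe sets tested. Coq10b, which encodes a ubiquinone-binding protein, had 253, 359, 926, 703, 341, 246 and 230.3 units, a 4.02-fold range with a peak at ZT11.6 (limma, adjusted p = 0.0186). Etfdh, which feeds electrons from fatty acid oxidation into ubiquinone, had 2791, 2912, 2630.3, 2438, 2272, 2525 and 2854 units and peaked at ZT4.99 (adjusted p = 0.0455, limma). The call of Coq10b was lost without ZT02, ZT14 or ZT26 (adjusted p of 0.0708, 0.0859 and 0.0764) and that of Etfdh without any one array (0.0788 to 0.151).

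Of 17 tested genes of the citric acid cycle and pyruvate dehydrogenase, 1 was called, beside the same 4.47% of all probe sets tested. Idh3a, the catalytic subunit of the NAD-dependent isocitrate dehydrogenase, had 593, 626, 740.3, 918, 755, 670.2 and 621 units and a fitted peak at ZT14.5 (amplitude 0.26 ± 0.04, limma, adjusted p = 0.0381, and 0.0555 to 0.12 without any one array). Its highest array was ZT14, as in Ndufaf4 and in 2227 of the 12076 probe sets tested. None of 28 tested assembly factors outside the symbol rule was called with limma, and 9 had an unadjusted p under 0.05 (25.7% of all probe sets tested did), with Ttc19, Lrpprc and Coa6 having the largest amplitudes (0.17 ± 0.03, 0.17 ± 0.03 and 0.17 ± 0.04). None of 16 factors for transcription or mitochondrial DNA was called with limma either, and 5 had an unadjusted p under 0.05, against the same 25.7% of all, among them Ppargc1b (0.39 ± 0.12), Pprc1 (0.30 ± 0.06) and Esrra (0.24 ± 0.06). For scale, the clock genes Arntl and Dbp varied far more on the same arrays. Arntl ranged from 39.2 to 497 units and Dbp from 111.5 to 2161 units.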

How the data were processed

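Liver RNA pools were hybridised to 7 arrays, 1 for each time point. The deposited table holds log2 values, made by the authors with RMA (background correction, quantile normalisation, median polish) in Affymetrix Expression Console 1.1.2637.26569 as listed by the submitters' processing notes. Probe sets were named by GEO's platform annotation. Of 35556 probe sets, 21789 carried 1 symbol, 1621 several and 12146 none. All 87 symbols matched RefSeq's gene table (GRCm38.p6 promoter windows). The number of arrays limits the precision.

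Cosine fits (24 h, moderated F-test with 4 residual degrees of freedom) and the dark minus light difference (two-sided, 3 against 4 arrays) were computed with limma 3.58.1 in R 4.3.3 over the 12076 probe sets with 1 symbol and a mean above 85 units, with Benjamini-Hochberg adjustment over all of them. P-values measure how far the pools depart from a flat profile along these shapes, against the scatter of pools around them. They do not measure the spread between mice. The code was tested on simulated data. Alternatives were leaving out each array, leaving out ZT02 and ZT26, other minimums, subtraction of array medians, limma's trend and robust options, the natural scale, the mean over probe sets, Fisher's one-period test and the mRNA thresholds of the methods. Named were the called members, the 3 largest and the smallest amplitude and the highest signal of each complex, the 2 largest amplitudes among assembly factors, isoform families, members nearest the minimum and up to 3 genes of each pathway list. The members and lists were chosen with earlier results of these data known. Some listed genes had no probe set with a single symbol and were not analysed here.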

Additional observations from a re-analysis of the deposited data

Results flagged for a closer look

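In 14 of the 87 genes 1 array stood apart from the other 6 by Dixon's test at the 95% level. Chance flags about 1 in 20 groups of values without ties, and the rate over all probe sets tested is not given here. No excess in these genes can therefore be read from the 14. In 12 of the 14 at least 2 arrays had identical values. The values below are deviations from the gene's mean over the 7 arrays, in log2.

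At ZT02 the low genes were Ndufb3 (−0.264), Sdhaf2 (−0.192), Atp5j (−0.0968) and Ndufa12 (−0.0475). At ZT06, Atp5k (−0.32) and Uqcr10 (−0.136) were low and Cox6b1 (0.108) was high. At ZT10, Ndufa4 was low (−0.0409). At ZT14, Atp5md (0.141) and Cox7b (0.0225) were high. At ZT18, Sdhaf3 (0.174), Ndufs6 (0.0699) and Ndufb11 (0.0137) were high and Ndufa13 (−0.0997) was low. All 3 probe sets of Atp5md were highest at ZT14, and whether they share probes was not tested.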

How the results depend on the processing

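The count of rhythmic probe sets was 540 in all and 1 among the members. It became 57 and 0 with no minimum level, 950 and 2 with array medians subtracted, and 1645 and 1 at the mRNA thresholds of the methods. With Fisher's one-period test it was 0 and 0 (unadjusted p under 0.05 in 2101 probe sets and 6 members). Without any one array it ranged from 13 to 312 in all and was 0 among the members. With a minimum of 170 units 2 members were called. The cause was not tested. Between dark and light 0 probe sets were called, and 1 without ZT22 (without any one array 0 to 1). Among members it was 0 under every alternative run, with 2 to 4 at an unadjusted p under 0.05. The median dark minus light difference, 0.0288 in log2, was 0.0229 to 0.0324 without any one array, 0.025 with array medians subtracted, 0.0205 on the natural scale (relative to the mean) and 0.0222 without ZT02 and ZT26, positive throughout. Ndufaf4 lost its call without any one array, without ZT02 and ZT26, with no minimum level and with the one-period test, and Sdhaf1 gained one with the minimum of 170 units and with array medians subtracted. No paired analysis was possible because each time point has a single array. With 1 pool for each hour, a departure on 1 array cannot be told apart from that pool, and amplitudes near their median standard error of 0.03 in log2 were not detectable.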
